A study of Mus musculus with 13 samples.

Results

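Repressive histone marks of 2 kinds were mapped in mouse embryonic stem cells, and the regions described here are those where one mark lay close to the other without touching it. H3K27me3 is written by the Polycomb repressive complex PRC2, mostly at CpG-rich promoters of silent developmental genes, where new marks are placed beside existing ones so that domains can widen. H3K9me3 is written in these cells in large part by Setdb1, which is brought to endogenous retroviruses and other repeats by KRAB zinc finger proteins and their cofactor Trim28. Where a domain of either kind stops is its border, and a border is seen here only as the edge of a called peak.

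An H3K27me3 region was made by merging touching peaks of both untreated H3K27me3 lists, and it was kept if both lists held it and it lay on autosomes 1 to 19. The bordering regions were chosen by their measured distance to H3K9me3 in the same untreated cells. They overlapped no H3K9me3 region held by all 4 untreated H3K9me3 lists, but lay within 10 kb of one, which is called the partner. The rule gave 254 regions of 5359. Of the remaining regions, 37 overlapped H3K9me3, 996 lay over 10 kb and up to 50 kb away, and 4072 lay over 50 kb away.

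All libraries came from J1 embryonic stem cells that carry an inducible SetDB1 knockout, grown without feeder cells and with LIF, so the untreated cells carry the inducible allele as well. Tamoxifen at 2.5 µM was given to ablate Setdb1, and the solvent DMSO was the control treatment. Peak lists were used from 4 H3K9me3 libraries of untreated cells, 2 H3K27me3 libraries of untreated cells and 2 H3K27me3 libraries of tamoxifen-treated cells. H3K9me3 after tamoxifen and the 5 input samples were not analysed here, and whether Setdb1 was lost could not be checked. The labels do not state that libraries of a group came from separate cultures, so a p-value measures only the spread between libraries, which may be technical. H3K9me3 replicate 4 has the antibody entry "none" and its title placed it with the other H3K9me3 libraries.

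Each list gave peak positions on mouse build mm9 and no score, so depth is unknown and a border carries no strength. The H3K27me3 lists held 7041 to 22265 peaks and the H3K9me3 lists 18037 to 42725. Median peak width was 2511 bp in untreated H3K27me3 replicate 1, and 784 bp in replicate 2 and 727 to 729 bp with tamoxifen. Replicate 1 of each group was called with MACS2 2.0.10 and the others with 2.1.0, so tamoxifen and untreated lists are also compared within each version.

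H3K27me3 regions were less often near H3K9me3 than the same regions moved along their chromosomes. Within 10 kb there were 254 regions, against a mean of 392.3 over 1000 circular shifts with a 95% range of 352 to 439, a ratio of 0.648. The shifts carry every region of a chromosome by 1 common step, so they keep region widths and spacing but not the neighbourhood of either mark. They are given as a description, since the same lists chose the regions.

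The ratio was smallest for overlapping regions, was lower at 1 to 2 kb than up to 1 kb, and was higher in each bin from 2 kb on. Overlapping regions numbered 37 against a shift mean of 211.9, a ratio of 0.175. Up to 1 kb away there were 22 regions against 43.0 (range 31 to 56), a ratio of 0.512. Over 1 kb to 2 kb there were 20 against 41.9 (30 to 55), a ratio of 0.477. The next bins held 81 regions against 120.5 at 2 to 5 kb, a ratio of 0.672, and 131 against 186.8 at 5 to 10 kb, a ratio of 0.701. All 4 bins within 10 kb lay below the range of the shifts. The shortfall went on past the distance limit, with 269 regions against 332.0 (295 to 369) at 10 to 20 kb. From 20 to 100 kb the counts lay inside the range, at ratios of 0.929 and 0.971. Beyond 100 kb there were 3199 regions against 2741.4, above the range of 2640 to 2850.

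**Figure D1:**
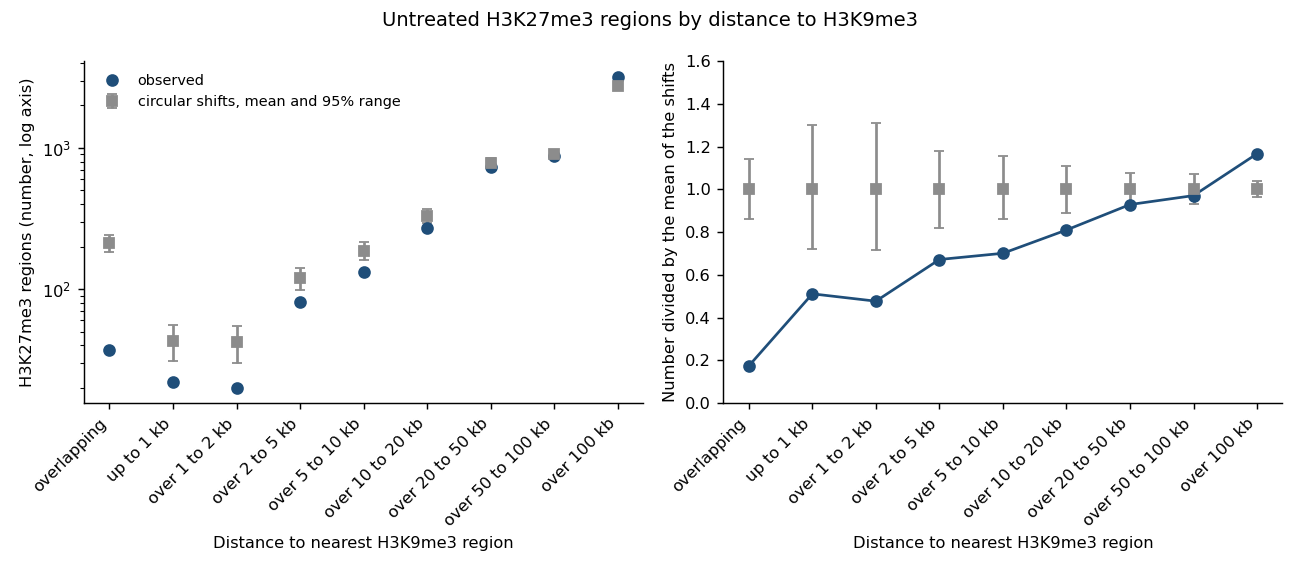
Untreated H3K27me3 regions by distance to the nearest H3K9me3 region held by all 4 lists. The left panel gives the number of regions on a log axis and the right panel the number divided by the mean of 1000 circular shifts; blue points are observed, and grey squares and bars are the mean and 95% range of the shifts. The observed points lie below the bars for overlapping regions and in every bin up to 20 kb, and above the bar beyond 100 kb.

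Shifts of 100 to 1000 kb, which keep each region in its own part of the chromosome, gave a smaller shortfall in the same direction. Their mean was 360 regions within 10 kb (range 324 to 399), a ratio of 0.706. For the 42 regions within 2 kb the shift mean was 77.6 (range 62 to 96), a ratio of 0.541. This range of shifts was chosen after the whole-chromosome result was known.

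The tamoxifen lists, which did not choose the bordering regions, gave similar numbers against the same untreated H3K9me3 regions. Under the same rule, 357 of 7220 regions held by both tamoxifen lists lay within 10 kb, 4.94%, against a shift mean of 538 (range 486 to 591), a ratio of 0.664. In single lists the ratio was 0.614 in untreated replicate 1, 0.62 in untreated replicate 2, 0.594 in tamoxifen replicate 1 and 0.651 in tamoxifen replicate 2. Tamoxifen and untreated lists overlapped, and their mean ratios were 0.622 ± 0.0402 and 0.617 ± 0.00395 (SD, 2 lists a group), with p = 1 by a two-sided exact permutation test. With 2 libraries against 2, the smallest p that this test allows is 0.333. The difference was -0.0208 within MACS2 2.0.10 and 0.0305 within 2.1.0. Of the 254 bordering regions, 213 (83.9%) overlapped one of the 357 tamoxifen regions, and 229 of the 357 (64.1%) overlapped a bordering region.

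Bordering regions spread fairly evenly over the 10 kb that the rule allows. The median gap, counted as the bases between the edges of the merged regions, was 5288.5 bp, with quartiles of 3064.8 and 7808 bp. The shifts gave a median gap of 4764.9 bp with a range of 4273.9 to 5263.1 bp, so the observed median lay just above that range. The regions just inside the limit were chr5:98596979-98622659 and chr17:34134390-34140057, both with a gap of 9998 bp, and chr8:47822105-47829909 with 9989 bp. Just outside it were chr10:51309246-51310816 with a gap of 10006 bp, chr10:88805559-88810349 with 10021 bp and chr6:116409399-116412807 with 10035 bp.

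A gap between merged regions is the shortest that any pair of lists allows. Among the 233 bordering regions with a peak in all 4 H3K27me3 lists, the gap measured in single pairs of lists had medians of 5776 to 6371 bp over the 8 pairs of untreated H3K27me3 and H3K9me3 lists. With the tamoxifen lists the 8 medians ran from 5836 to 6515 bp, so the pooled ranges overlapped. Against H3K9me3 replicates 1, 3 and 4 taken singly, both tamoxifen medians were larger than both untreated ones. For replicate 3 they were 5961 and 5836 bp with tamoxifen, against 5776 and 5798 bp. For replicate 2 they were 6515 and 6354 bp, against 6371 and 6271 bp. The untreated lists set the borders, and no test was made of these gaps. H3K9me3 replicate 3, the list with the most peaks, gave the smallest median gap with each of the 4 H3K27me3 lists.

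The bordering H3K27me3 regions were of ordinary width. Their median was 3368.5 bp, from 579 to 43519 bp, against 3680 bp for all 5322 regions that did not overlap H3K9me3. Widths of 10 kb or more were found for 14 bordering regions, 5.51%, against 6.99% of all, and widths under 2 kb for 60, 23.6%, against 18.9%. The 20 regions with a gap of 1 to 2 kb included 4 of the 14 wide ones.

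The 254 regions bordered 238 distinct H3K9me3 regions, 2.25% of the 10588 that all 4 lists held. Partner width had a median of 3407 bp, close to the 3337 bp of all, and a range of 621 to 15418 bp, while the widest H3K9me3 region of all spanned 63134 bp. Partners were spread to both ends of the range that is common for H3K9me3. Those under 2 kb made up 26.5% against 19.1% of all, those of 2 to 4 kb 29.8% against 39%, and those of 8 to 10 kb 14.3% against 7.93%. Wide partners of 10 kb or more were 12 in number, 5.04% against 6.66%. The H3K27me3 region was the wider of the pair in 117 cases, 46.1%.

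**Figure D2:**
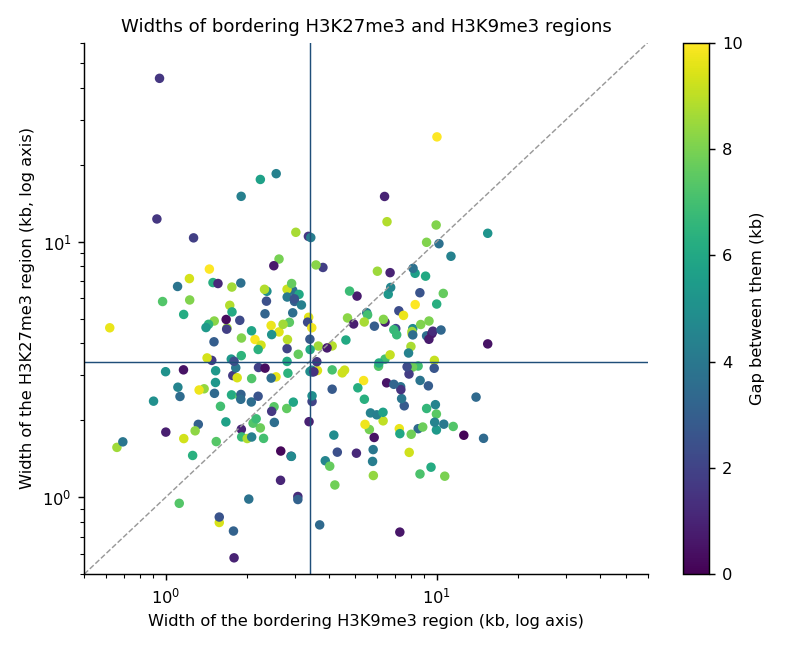
Width of each of the 254 bordering H3K27me3 regions against the width of its H3K9me3 partner, both in kb on log axes, coloured by the gap in kb. Full lines mark the medians of 3368.5 bp and 3407 bp and the dashed line equal width; points lie on both sides of the dashed line, and the widest H3K27me3 region, 43519 bp, borders a partner of 948 bp.

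Most partners had 1 bordering region. Of the 238, 224 had 1, 12 had 2 and 2 had 3. The partner lay to the left, at lower coordinates, of 127 regions and to the right of the other 127. H3K9me3 lay within 10 kb on both sides of only 2 regions. One was chr5:121288158-121295670, 7513 bp wide, with gaps of 5601 and 7033 bp. H3K27me3 peaks covered 20.6% to 29.7% of its nearer partner in the 4 H3K27me3 lists. The other region was chr13:112473972-112475862, 1891 bp wide, with gaps of 7278 and 7341 bp.

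The closest pair lay on chromosome 9, where the H3K27me3 region chr9:21992488-21994234 started 87 bp after the H3K9me3 region chr9:21979816-21992400 ended. The partner was among the widest, at 12585 bp. The H3K9me3 edge in single lists lay 87 to 392 bp from the border of the H3K27me3 region, so the edge was placed alike in all 4. The H3K27me3 edge lay 87 and 720 bp from the partner in untreated replicates 1 and 2, and 504 and 456 bp in the tamoxifen replicates. The tamoxifen edges lay between the untreated ones.

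At the next closest pairs the tamoxifen edges fell on either side of the untreated ones. At chr13:65359668-65361182, with a gap of 169 bp, the untreated H3K27me3 edges lay 349 and 169 bp from the partner and the tamoxifen edges 754 and 715 bp, both further away. At chr13:97693287-97698243, with a gap of 306 bp, the distances were 809 and 306 bp untreated, and 891 and 70 bp with tamoxifen, so the tamoxifen edges lay outside the untreated ones on either side. At chr7:127739319-127742515, with a gap of 350 bp, all 4 edges lay 315 to 481 bp from the partner. Regions of 3149, 3978, 1712 and 2801 bp on chromosomes 3, 2, 14 and 2 followed, with gaps of 471, 499, 504 and 510 bp. Several of these small gaps rested on H3K9me3 replicate 3. Without it the gap of 499 bp at chr2:116373437-116377414 became 2287 bp, and the gaps of 169 bp on chromosome 13, 350 bp on chromosome 7 and 510 bp at chr2:35865497-35868297 became 329, 631 and 1120 bp. When only peaks of at least 500 bp were used, the partners of chr13:97693287-97698243 and chr3:83591989-83595137 were lost, and the nearest H3K9me3 region lay 102175 and 77585 bp away.

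**Figure D3:**
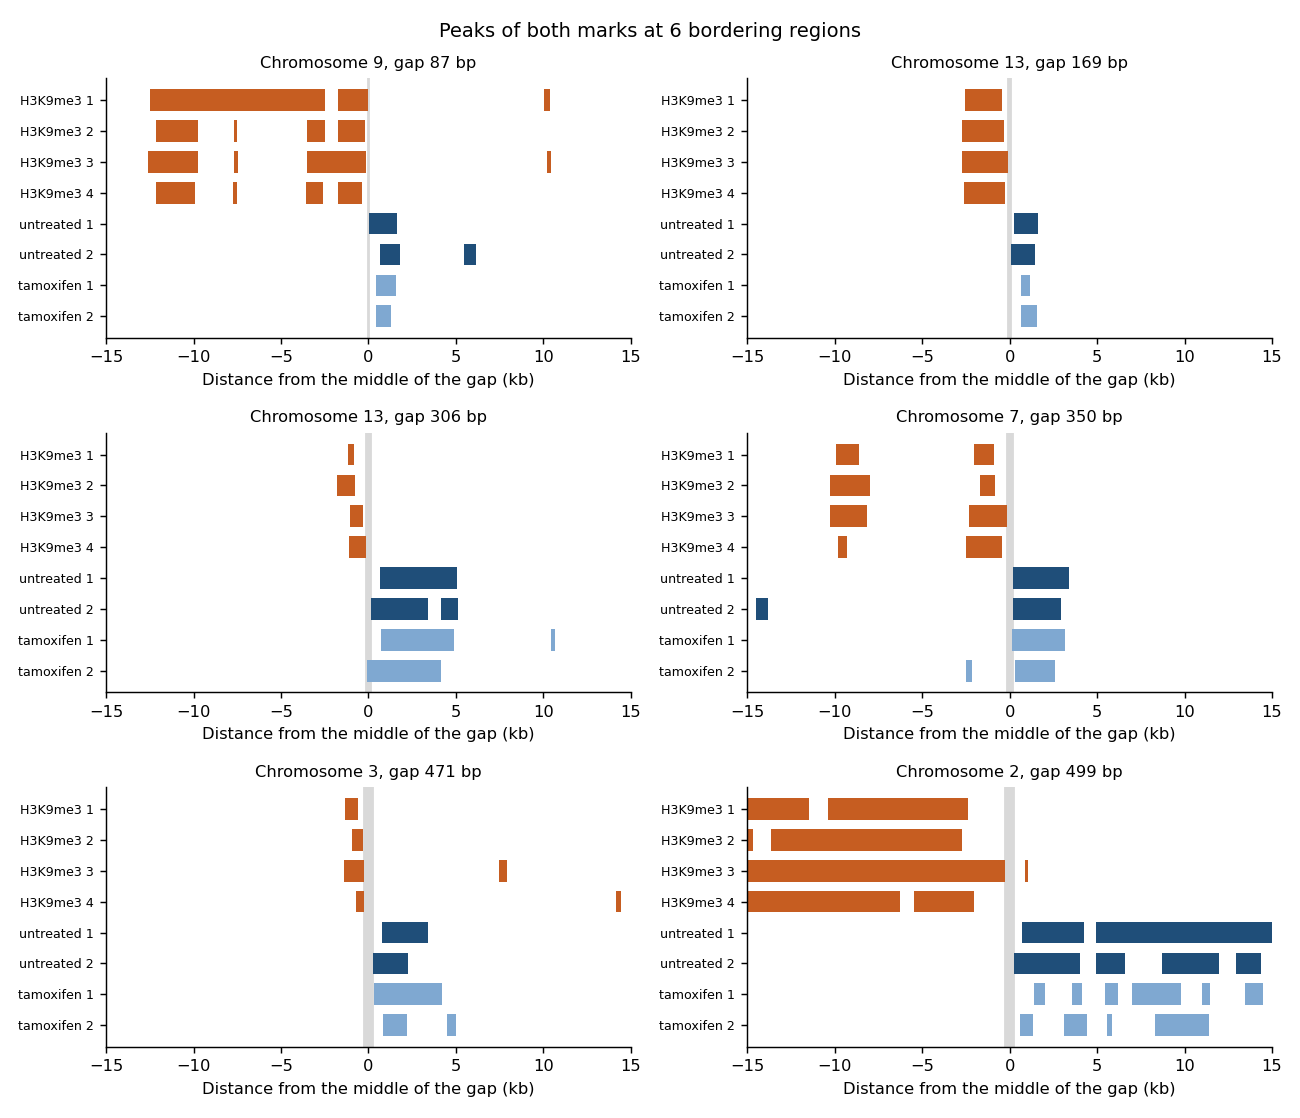
Peaks of both marks around the 6 smallest gaps, by distance in kb from the middle of the gap (grey), drawn with the H3K9me3 partner on the left. Rows are the 4 H3K9me3 lists (orange), the 2 untreated H3K27me3 lists (dark blue) and the 2 tamoxifen lists (light blue); near the gap the marks stay on their own sides of its middle, except for a tamoxifen replicate 2 peak that runs past it on chromosome 13 at the gap of 306 bp, a short tamoxifen replicate 2 peak within the partner on chromosome 7 and a short H3K9me3 replicate 3 peak past the gap on chromosome 2.

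The widest bordering region was chr11:96027415-96070933, 43519 bp, which ended 1566 bp before an H3K9me3 region of 948 bp. It was 1 peak in each untreated list, and 6 and 5 peaks in the tamoxifen lists, which covered 80.9% and 91.3% of it. Its edge lay 1566 and 1960 bp from the partner untreated, and 2478 and 1486 bp with tamoxifen. The H3K9me3 edge was within 1566 to 1777 bp in all 4 lists, but with only peaks of at least 500 bp the partner was lost and the nearest H3K9me3 region lay 877217 bp away. A region of 15014 bp at chr10:84214258-84229271 came closer, with a gap of 961 bp to a partner of 6417 bp. Its edges lay 961 and 1311 bp away untreated and 1899 and 1111 bp with tamoxifen. Its partner was also lost with peaks of at least 500 bp, which left the nearest H3K9me3 region 192201 bp away. The second widest, chr5:98596979-98622659 at 25681 bp, is one of those just inside the limit, and without H3K9me3 replicate 1 its gap was 18143 bp. Also among the 10 widest, chr8:123637461-123655895, chr5:102082484-102099984 and chr13:113776662-113791692 kept gaps of 4355, 5687 and 4331 bp with only peaks of at least 500 bp. The partner of chr16:35147244-35159501 was lost with such peaks.

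The widest partner, chr2:116357520-116372937 at 15418 bp, had 2 H3K27me3 regions one behind the other, with gaps of 499 and 5171 bp and widths of 3978 and 10775 bp. At chr15:34167996-34169694 the partner was 14882 bp wide and the gap 3412 bp. At chr17:35493956-35496418 it was 13963 bp wide and the gap 3433 bp. The H3K9me3 edge was placed alike in the 4 lists at this last locus, at 3433 to 3496 bp from the H3K27me3 border.

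Bordering regions were spread unevenly over the chromosomes, and a few stretches held several of them. Chromosome 8 held 32 of the 254, 12.6%, while it held 7.33% of all regions. Of its regions that did not overlap H3K9me3, 8.21% were bordering (exact 95% interval 5.68 to 11.4%), against 4.77% over all autosomes and 2.51% and 2.95% on chromosomes 3 and 11. Chromosome 16 had the highest share, 14 of 135 regions or 10.4% (5.79 to 16.8%). The chromosomes were compared after their values were seen and no test was made. When the span that peaks cover on each chromosome was cut into 3 equal lengths, the one with the highest coordinates held 39.4% of bordering regions and 41.5% of all H3K27me3 regions, against 26.3% of the H3K9me3 regions.

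The densest stretch was chr18:37157419-37927499, with 6 bordering regions beside 3 partners. The partner chr18:37879951-37884061 had 3 of them, with gaps of 8903 and 2777 bp on its left and 7103 bp on its right. This partner also carried H3K27me3 peaks, over 36.1% and 35.2% of its bases untreated, and 25.7% and 47% with tamoxifen. At its left neighbour chr18:37867142-37871047 the tamoxifen edges lay 11396 and 10407 bp away, against 8903 and 9036 bp untreated. At the neighbour 2777 bp away they lay 3244 and 3557 bp away, against 2982 and 2777 bp. On the right, at chr18:37891165-37894312, they lay 7209 and 6682 bp away, against 7161 and 7103 bp. Both regions on the left were thus further from the partner in both tamoxifen lists, and the region on the right was not.

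A second partner with 3 bordering regions was chr7:69618542-69621343, in a stretch with 4 such regions at chr7:69602844-69995622. Its gaps were 9191 bp on the left, and 2004 and 6099 bp on the right. The remaining stretches of 1 Mb with 3 bordering regions each were chr8:119257554-119671054, chr8:128660854-129334948, chr9:122195457-123066042 and chr16:89772953-90386363.

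With tamoxifen, bordering regions were found again as often as other H3K27me3 regions. A peak in both tamoxifen lists was held by 233 of 254 (91.7%, exact 95% interval 87.6 to 94.8%), and the share over all 5322 regions was 91.7%. A further 9 were held by tamoxifen replicate 1 alone and 9 by replicate 2 alone. The 3 regions with no tamoxifen peak were chr2:113644234-113646086, chr8:10658331-10660051 and chr10:53222412-53223190. These were narrow, at 1853, 1721 and 779 bp, and in each case 1 untreated list covered the region whole and the other 11.9%, 28.3% or 38.6% of it.

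The bordering regions were covered less by the tamoxifen lists, as were all regions. Untreated replicates 1 and 2 covered 86.5% and 78.2% of their bases, and the tamoxifen lists 65.1% and 67.4%. Over all regions the cover was 88.7%, 80.1%, 68.6% and 72.5%. Untreated cover is high by construction, since those lists made the regions. More than 1 peak lay in 30 and 42 bordering regions untreated, and in 85 and 59 with tamoxifen. When each region was cut in the middle, the part facing H3K9me3 was covered to 86.3%, 79%, 64.7% and 68.9% in the 4 lists, and the far part to 86.8%, 77.3%, 65.6% and 65.9%. The far part had more cover in both lists of MACS2 2.0.10 and the facing part in both lists of 2.1.0, with and without tamoxifen.

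No larger move of the border that faces H3K9me3 was found with tamoxifen than of the border on the other side. For each region and list, reach was the distance from the middle of the untreated region to the outermost edge of the peaks that overlapped it. The reach on the facing side minus that on the far side had a median over the 233 regions of 0 bp in both untreated lists, and of -5 and 3 bp in tamoxifen replicates 1 and 2. A negative value means that the peaks reached less far towards H3K9me3. The tamoxifen mean of -1 ± 5.66 bp differed from the untreated mean by -1 bp (SD over 2 lists a group; p = 1, exact two-sided permutation test). The untreated lists set the middle of each region, so their 0 follows in part from the rule. With both untreated values at 0, p in this test depends only on whether the tamoxifen values share a sign. It therefore cannot decide whether the facing border moved more. Over the alternatives the difference ran from -78.2 bp, with peaks of at least 500 bp, to 50 bp, after merging regions over 1 kb (exact permutation p = 0.333 for both).

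These medians are small beside the scatter of single borders. The quartiles of facing minus far reach were -506 and 530 bp in tamoxifen replicate 1, and -731 and 649 bp in replicate 2. Regions over 10 kb to 50 kb away gave a tamoxifen difference of -11.5 bp, and regions over 50 kb away 7 bp (exact permutation p = 1 for each). Over all regions that did not overlap H3K9me3 the difference was 4.75 bp (exact permutation p = 0.333).

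Comparing lists of the same MACS2 version gave the move of each border. With version 2.0.10 the tamoxifen edge moved by a median of -136 bp on the facing side and -168 bp on the far side, where a negative value is a move into the region. With version 2.1.0 the medians were -4 bp facing and 22 bp far. Untreated replicate 2 against replicate 1, which differ in MACS2 version and not in treatment, gave -71 bp and -130 bp. The size of the facing minus far move, whatever its sign, had a median of 541 and 747 bp between tamoxifen and untreated lists, 606 bp between the untreated lists and 809 bp between the tamoxifen lists. The pairs within a group differ in MACS2 version and the pairs between groups do not, so the sizes cannot be set against each other as treatment against replicate error. A shared version did not make lists alike. The 2.0.10 lists had a median peak width of 2511 bp untreated and 729 bp with tamoxifen.

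Region by region, the facing border was called further out if facing minus far move was positive in both MACS2 versions. A facing edge that drew back less than the far edge therefore also counts. The call held for 55 of 233 bordering regions (23.6%, exact 95% interval 18.3 to 29.6%), and the share over all regions was 26.1%. The reverse, further in on the facing side in both versions, also held for 55 (23.6%), and over all regions for 26.5%. Both shares are near those of all regions. By gap, the medians of facing minus far reach were -33 and 114 bp with tamoxifen at gaps up to 1 kb (21 regions), -95 and -115 bp at 1 to 2 kb (17 regions), -8.5 and -168 bp at 2 to 5 kb and 3 and 47 bp at 5 to 10 kb. The tamoxifen lists had opposite signs in the closest class, negative values from 1 to 5 kb and positive values from 5 to 10 kb.

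In both tamoxifen lists, fewer bordering regions had a peak that passed the untreated border on the side of H3K9me3 than on the far side, a count given with no test over regions. In replicate 1 this was seen for 40 regions facing and 54 far (17.2% and 23.2%), and in replicate 2 for 75 facing and 90 far (32.2% and 38.6%). Over all regions the shares were 20.8% and 21.1% in replicate 1, and 35.8% and 36.2% in replicate 2. Regions over 10 kb to 50 kb away had the same direction, with 21.1% facing and 21.6% far in replicate 1, and 32.3% and 35.7% in replicate 2. The direction was the other way for regions over 50 kb away, at 21% and 20.8%, and 36.9% and 36.2%. Untreated lists cannot pass a border that they set, so this count has no untreated counterpart.

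**Figure D4:**
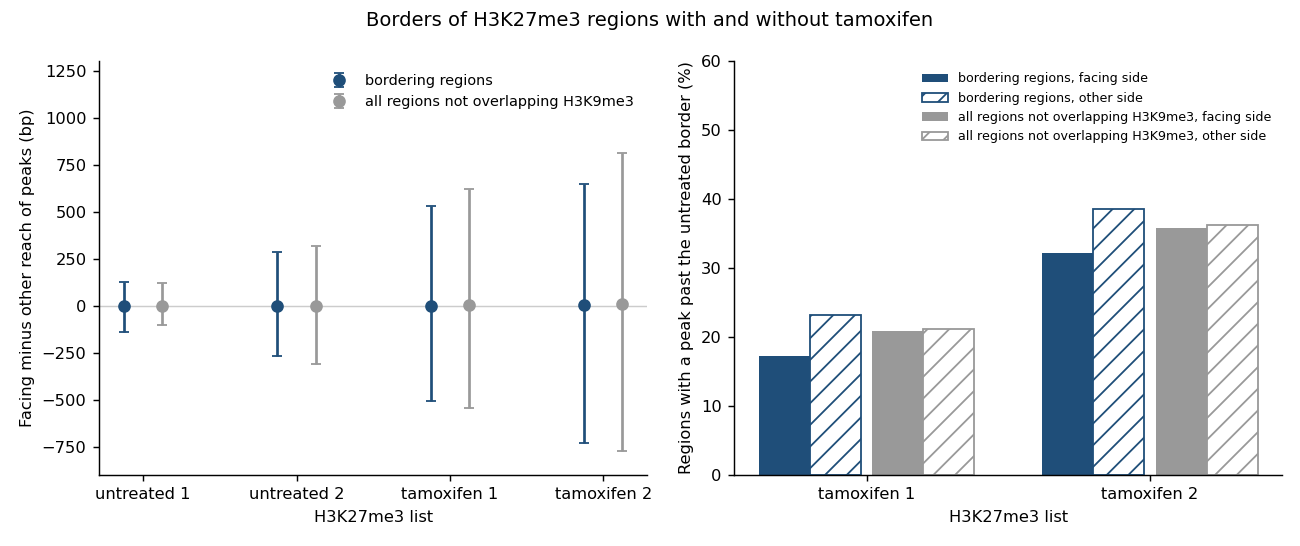
The left panel gives the facing minus far reach of H3K27me3 peaks in bp for each list, as the median (point) and quartiles (bars), for 233 bordering regions (blue) and 4880 regions not overlapping H3K9me3 (grey). The right panel gives the percent of regions whose tamoxifen peaks pass the untreated border on the facing side (filled) and on the other side (hatched); medians lie within 7 bp of 0 in all lists, and the filled bars are lower than the hatched ones for bordering regions, at 17.2% against 23.2% and 32.2% against 38.6%.

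Single loci moved in both directions. At chr11:51978523-51986442 facing minus far move was 1333 and 3084 bp in the MACS2 versions, but untreated replicate 1 covered only 2.83% of this region. In replicate 1 the facing edge lay 4096 bp from the partner with tamoxifen, against 5372 bp untreated. In replicate 2 the facing edge drew back, to 2104 bp with tamoxifen against 1869 bp untreated. The far edge of replicate 2 lay further inside the border, at -3319 bp with tamoxifen against 0 bp untreated. At chr18:24561336-24565660 the far edge lay inside the border with tamoxifen, at -2202 and -2423 bp, while the facing edge lay 5253 and 5699 bp from the partner, between 5057 and 5754 bp in the untreated lists. At chr6:54890478-54895837 the facing edges lay 2345 and 1204 bp away with tamoxifen, against 2321 and 2482 bp. Inward moves were led by neighbouring regions on chromosome 6. Tamoxifen peaks there joined chr6:21799345-21801712 and chr6:21802228-21804719 in both lists, so the first appears as the strongest inward move and the second among the strongest outward ones. At chr12:57403062-57404757 the far edge moved out by 1322 and 2367 bp past the border with tamoxifen, and at chr18:37867142-37871047, described above, the facing edge drew back.

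H3K27me3 peaks seldom crossed the gap. No untreated peak of a bordering region can touch its partner under the rule. Tamoxifen peaks touched it at 1 region in each list, and at different ones. At chr12:18142895-18143624 the edge in tamoxifen replicate 2 lay inside the partner, at a distance of -17 bp, while replicate 1 ended 998 bp short of it. At chr8:19532588-19538706 it was replicate 1 that lay inside, at -424 bp, and replicate 2 ended 947 bp short. Neither crossing was seen in both tamoxifen lists.

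The gap held fewer H3K27me3 peaks than a window of the same width on the far side, and this was so in every list. The facing gaps, 1343419 bp when summed over regions, were covered to 4.67% in untreated replicate 1, 4.35% in untreated replicate 2, 4.11% in tamoxifen replicate 1 and 7.53% in tamoxifen replicate 2. The far windows were covered to 6.61%, 7.79%, 6.92% and 10.3%. Gap minus window was -1.94, -3.44, -2.82 and -2.82 percentage points in the 4 lists, so the sign was the same in each. The untreated lists also chose the regions, so their values are a description. Where regions lay one behind the other beside a partner, the gap of the outer region held the inner one. At chr2:116378109-116388883 the gap of 5171 bp held the bordering region of 3978 bp. Some bases are therefore counted more than once, and part of the gap cover is other bordering regions. An untreated peak that touches a region is part of it and cannot lie in its gap or far window, while a tamoxifen peak can. Peaks lay in 26, 45, 78 and 122 of the gaps, and in 38, 56, 100 and 127 of the far windows.

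The difference between the sides, in percent of bases, was smaller for regions further from H3K9me3. For regions over 10 kb to 50 kb away it was -0.213 to -0.593 points in the 4 lists, and for regions over 50 kb away -0.0851 to -0.21 points. Gaps and windows are also wider there, so the smaller percent cannot show whether the difference weakens with distance. The partner is the nearest H3K9me3 region held by all 4 lists, so neither a gap nor its far window holds one, and the gap ends at one by definition. Gap and window can differ in other ways too, and the cause of the lower cover was not tested. Across tamoxifen and untreated lists the difference between the sides was alike, at -2.82 ± 0.00284 and -2.69 ± 1.05 points (SD over 2 lists a group; p = 1, exact two-sided permutation test). It moved by -0.873 points within MACS2 2.0.10 and by 0.614 points within 2.1.0.

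**Figure D5:**
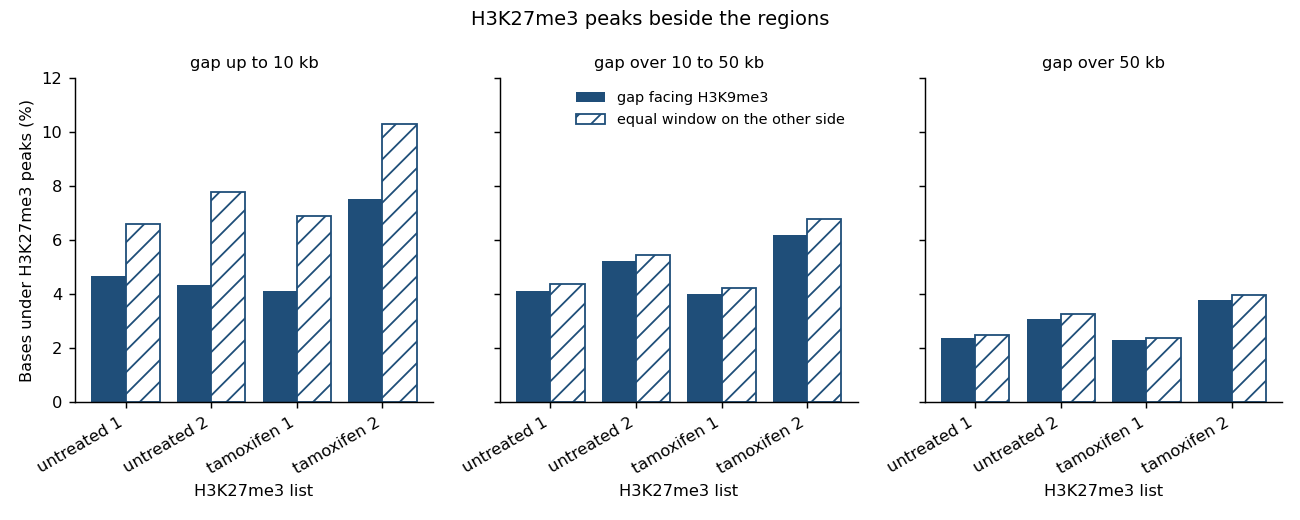
Percent of bases under H3K27me3 peaks in the gap that faces H3K9me3 (filled) and in an equally wide window on the other side (hatched), for each H3K27me3 list, by the width of the gap. For bordering regions (left) the gap has 4.11% to 7.53% and the window 6.61% to 10.3%, with the gap lower in all 4 lists; the sides differ by less than 1 point in the other panels.

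Partners carried H3K27me3 in a few places, and no difference with tamoxifen beyond the spread between libraries was found. H3K27me3 peaks covered 2.56% and 1.79% of partner bases in the untreated lists, and 1.7% and 2.15% in the tamoxifen lists. Over all H3K9me3 regions these were 0.134%, 0.167%, 0.112% and 0.206%. Tamoxifen minus untreated was -0.245 points for partners (two-sided exact permutation p = 0.667), and -0.857 and 0.367 points within the MACS2 versions. A peak touched 13, 12, 12 and 19 of the 238 partners. Partners were picked for a nearby H3K27me3 region, so their level above that of all H3K9me3 regions is a description.

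Some partners were touched by H3K27me3 peaks in every list, through an H3K27me3 region other than the bordering one. In any list 27 partners were touched, and in all 4 lists 7 were. The partner chr8:119657588-119658853, 1266 bp wide, lay wholly under H3K27me3 in all 4 lists, 1861 bp from its bordering region. The partner chr11:3089322-3096047 was covered to 59.3% and 59.7% untreated, and to 37.6% and 74.8% with tamoxifen. At chr6:90258221-90267394 the cover was 35.7% and 33% untreated, and 35.2% and 28% with tamoxifen. Only 1 partner, chr10:42327098-42328655, was touched in both tamoxifen lists and in no untreated list, at 21.2% and 17.1% of its bases.

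The bordering regions in turn held H3K9me3 peaks more often than other regions, in every H3K9me3 list. Such peaks are not in the H3K9me3 regions of the rule, since fewer than all 4 lists made them. They lay in 3, 9, 23 and 12 bordering regions in H3K9me3 replicates 1 to 4, that is in 1.18%, 3.54%, 9.06% and 4.72%. The shares over all regions not overlapping H3K9me3 were 0.225%, 1.16%, 3.53% and 1.6%. In any list it was 27 bordering regions, 10.6%, against 4.43% of all. These lists also set the rule, so the values are a description.

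Edges of both marks differed between lists, and for each mark to a similar degree on both sides. Over the 4 H3K9me3 lists, the partner edge that faces H3K27me3 had a median range of 718 bp, and the edge on its other side 706 bp. The H3K27me3 edge had a median range over 4 lists of 926 bp on the facing side and 1003 bp on the far side. These lists include those with tamoxifen, so the ranges of the marks cannot be set against each other. Between the untreated lists alone the distances were 432 and 455 bp. The edge near the other mark and the edge away from it thus had nearly the same spread.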

How the data were processed

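Peaks were deposited by the authors as 1 list for each library, whose 3 columns are chromosome, start and end. The unit is a position on mm9, with no score, p-value or read count. Bowtie 0.12.7 and MACS2 are named, per the submitters' processing notes, with MACS2 in version 2.0.10 for replicate 1 of each group and 2.1.0 for the others. The sources used here do not give the calling mode, threshold or control. These and the unknown depth affect the number and width of peaks, so list sizes do not measure a mark.

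Groups came from the sample titles. Python 3.11.15 was used with SciPy 1.17.1, pandas 2.3.3 and NumPy 2.4.6, and figures were drawn with Matplotlib 3.10.9. An overlap of 1 bp with a peak was enough for a list to hold a region. Each H3K27me3 region was moved with all others of its chromosome by 1000 circular shifts within the span that peaks cover, wrapping at its ends. Gap cover counted bases under any peak in the gap, summed over regions also where gaps overlapped, and far windows had the width of the gap. Group means over libraries were set against each other in exact permutation tests, two-sided, and intervals of shares are Clopper-Pearson at 95%, which treat regions as independent and cover counting error only. The border code was checked on untreated regions, each taken as 1 peak, with known outward moves added on the facing side. Split, lost or joined peaks, as in the tamoxifen lists, were not simulated.

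Regions to name were drawn from sets fixed by rule, and not every region of a set is described. The sets were the 10 smallest gaps, the 10 widest regions, the 5 widest partners, regions with H3K9me3 on both sides, the 5 strongest moves each way, the partners with most regions, and the 3 gaps on either side of the limit. Regions without a tamoxifen peak, peaks that reach the partner, partners that hold H3K27me3 and stretches of 1 Mb were named after their values were seen. The members, lists and tests were chosen with earlier results of these data known. Alternatives covered merging, the H3K9me3 consensus, peak width, the distance limit, chromosome 8, MACS2 version, the summary over regions and single libraries. Sex chromosomes were left out by the rule. No annotation or genome of mm9 was used here, so regions carry no gene names and no sequence is shown.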

Additional observations from a re-analysis of the deposited data

How the results depend on the processing

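No paired analysis was possible because the labels give the H3K27me3 groups only 1 number in common, that of replicate 2, and the first libraries carry none; differences within each MACS2 version are given in its place. The count of 254 bordering regions became 498 or 705 when H3K9me3 had to be held by at least 3 or at least 2 lists, 123 within 5 kb and 523 within 20 kb. Leaving out single libraries gave 255 to 799, the highest without untreated H3K27me3 replicate 1, and 455 without H3K9me3 replicate 1. The ratio to the shifts within the limit became 0.753 and 0.802 with at least 3 and 2 lists, 0.722 within 20 kb, 0.706 with the nearer shifts and 0.614 to 0.732 without single libraries, below 1 under every alternative run. The median width of bordering regions over that of all was 0.915, and became 0.956 with peaks of at least 500 bp, 0.853 within 5 kb, 0.973 within 20 kb and 0.878 to 0.994 without single libraries. The tamoxifen difference in facing minus far reach, -1 bp, changed sign to 50 bp after merging over 1 kb, 23 and 9.5 bp with at least 3 and 2 lists, 20.5 bp without chromosome 8 and 3 bp with MACS2 2.1.0 alone, and ran from -43 to 22 bp without single libraries. It was more negative, at -78.2 bp with peaks of at least 500 bp, -64.8 bp within 5 kb, -53.3 bp as a mean over regions and -41.5 bp with peaks within 1 kb joined (exact permutation p = 0.333 for each). The tamoxifen difference in gap cover, -0.13 points, became 0.319 with peaks of at least 500 bp, 0.1 within 5 kb, 0.188 within 20 kb and 0.614 with MACS2 2.1.0 alone, and ran from -0.395 to 0.383 without single libraries. That of partner cover ran from -0.524 to 0.0959 points without single libraries. The cause of these changes was not tested. No exact permutation p was below 0.333 for either difference between the sides. The gap was less covered than the far window in every H3K27me3 list under all 17 alternatives, by -0.25 to -5.2 points. The alternatives are not independent, since they reuse the same lists, and those without a tamoxifen list repeat the main values. Depth is unknown, 2 libraries a group cannot reach a p of 0.05, and facing edges moved by a median of 432 bp between the untreated libraries.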
